A study of Mus musculus with 11 samples.

Results

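The cytoplasmic ribosomal protein genes encode the protein part of the ribosomes that translate nuclear mRNAs. Members were taken as the protein-coding genes of the count files whose GRCm38 symbol is *Rpsa*, *Rplp0*, *Rplp1* or *Rplp2*, or starts with *Rpl* or *Rps* and a digit, leaving out pseudogene symbols, the *Rps6k* kinases and the *Rps19bp* genes. This rule, which used no measured value, took 84 of the 38561 genes in the files, 33 of the small subunit and 51 of the large subunit. Of these, 81 had enough counts to be tested. *Rpl10l* had no count in any library, and *Rpl3l* and *Rpl39l* had 0 to 4 counts per library.

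The series holds 11 RNA-seq libraries of mouse facial process explants (mandibular, maxillary and nasal tissue) at E10.5, from mice that are all of the strain labelled Mixed. Groups were wild type (wt, n = 2), homozygous mutants of *Rspo2*, which encodes a secreted enhancer of WNT signaling (*Rspo2*KO, n = 3), homozygous mutants of the WNT ligand gene *Wnt9b* (*Wnt9b*KO, n = 3), and double homozygous mutants (DKO, n = 3). The labels name neither the alleles nor the number of embryos per library, so p-values measure only the spread between these libraries. The labels give no treatment.

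Each ribosomal subunit contains 1 copy of nearly every one of its proteins, and the genes are transcribed in all growing cells. Their mRNAs are short, abundant and begin with a cytosine followed by a run of pyrimidines, the terminal oligopyrimidine (TOP) tract through which mTORC1 and LARP1 set their translation. Mammalian genomes also hold many intronless copies of these mRNAs, most of them annotated as processed pseudogenes. Loss of 1 allele of several members gives Diamond-Blackfan anemia in humans or patterning and pigment changes in mice.

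The pyrimidine letters CTTTCC were searched for on the strand that reads as the mRNA, from 250 bases before to 50 after each RefSeq start (GRCm38.p6). Most of each window lies before the start, so the letters need not be part of the mRNA. Of 76 such windows, which covered 64 of the 84 members, 39.5% held the letters, against 14.1% of 32851 windows of the same length for all genes. Examples of 30 bases near the start are printed to show the letters in place, with CTTTCC in capitals. The windows are chr7:4792957-4792986 (plus strand, *Rpl28*), chr11:114668570-114668599 (plus, *Rpl38*), chr3:90213628-90213657 (minus, *Rps27*), chr16:33056474-33056503 (plus, *Rpl35a*) and chr17:27635221-27635250 (minus, *Rps10*).
Rpl28: tcgtgtctctCTTTCCgtctccggccgcca
Rpl38: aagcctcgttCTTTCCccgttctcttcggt
Rps27: gctttcgctcCTTTCCggcggtgacgacct
Rpl35a: ttgccttcctCTTTCCgccatcttggcgcc
Rps10: acgccccttcCTTTCCagcctccgcctcgg

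How far a member can be told from its copies bears on every count below, because the treatment of reads that map to several places is not given in the sources used here. All windows of 50 bases of each member's coding sequence were searched, on both strands, in the GENCODE M21 transcripts of other genes that do not overlap it. For 29 of the 84 members every coding window was found elsewhere, and the median over members was 89.5%. Among the members that share few windows were *Rps3* (8.1%) and *Rpl8* (8.7%).

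The first 60 coding bases of 6 sequences are given below because results on *Rps16*, *Rps7* and the *Rps27* genes turn on them; capitals mark bases that differ from the member named first in each set. *Rps16* lies on chr7 (bases taken from chr7:28350804-28351003, plus strand, across an intron) and *Rps16-ps2*, which matches it at 438 of 438 coding bases, on chr5 (chr5:129128458-129128517, minus strand).
Rps16: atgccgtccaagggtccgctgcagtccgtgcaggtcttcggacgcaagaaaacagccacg
Rps16-ps2: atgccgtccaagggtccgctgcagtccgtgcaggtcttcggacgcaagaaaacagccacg
*Rps7* (chr12:28635595-28635654, minus strand) and its copy *Gm6472* on the X chromosome (chrX:152910061-152910120, minus strand) were identical at 579 of 582 coding bases.
Rps7: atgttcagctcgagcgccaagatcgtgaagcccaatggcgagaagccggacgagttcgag
Gm6472: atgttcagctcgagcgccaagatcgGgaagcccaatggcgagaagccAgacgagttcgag
*Rps27* (bases taken from chr3:90213248-90213615, minus strand, across introns) is set beside its relatives. *Rps27l* (bases taken from chr9:66946175-66946884, plus strand, across introns), a divergent paralog, was identical to *Rps27* at 192 of 252 coding bases, whereas the member *Rps27rt* was identical at all 252.
Rps27: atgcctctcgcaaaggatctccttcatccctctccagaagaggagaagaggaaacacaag
Rps27l: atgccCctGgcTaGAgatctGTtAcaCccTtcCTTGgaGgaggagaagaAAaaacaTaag

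Library totals were 11136166 to 18017344 counts, and levels are given as CPM, the counts of a gene divided by the library total and edgeR's TMM factor. Of *Rspo2* itself, the wt libraries held 14.8 and 16.0 CPM, and the *Rspo2*KO libraries 4.74 to 6.59 CPM. It was at 22.8, 2.86 and 18.1 CPM in the libraries labelled *Wnt9b*KO 1, 2 and 3, and at 4.17, 3.68 and 15.5 CPM in those labelled DKO 1, 2 and 3. *Wnt9b*KO 2 and DKO 3 therefore went against their labels for *Rspo2*, and results are given without them where they change. *Wnt9b* counts were 16.2 to 23.3 CPM in *Wnt9b*KO and DKO and 10.8 to 16.7 CPM in wt and *Rspo2*KO, and the part of the gene that was deleted is not given in the sources used here. Facial mesenchyme markers (*Twist1*, *Prrx1*, *Msx1*, *Dlx5*, *Alx4*, *Pdgfra*) were detected in every library, and heart markers summed to 49.8 CPM in wt 1 against 2.44 to 9.05 CPM elsewhere.

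The members took a smaller share of the counts in both groups that carry the *Wnt9b* mutation. In wt 1 and wt 2 the share was 3.69% and 3.93%. It was 3.03%, 3.68% and 3.64% in the *Rspo2*KO libraries, 2.44%, 2.39% and 2.69% in *Wnt9b*KO, and 2.53%, 2.69% and 2.91% in DKO. All 6 libraries labelled *Wnt9b*KO or DKO (2.39% to 2.91%) lay below all 5 others (3.03% to 3.93%), and the exact 95% binomial interval, which covers counting error only, ran from 3.92% to 3.94% in wt 2. Of the 81 tested members, 36 had all 6 of these libraries below all 5 others, against 10.6% of all genes, and 2 had them above, against 10.1%. Small and large subunit genes shared the difference, with means of 1.63% ± 0.05 (SD, n = 2) and 2.18% ± 0.11 in wt and of 1.04% ± 0.08 (SD, n = 3) and 1.47% ± 0.09 in *Wnt9b*KO. In bulk tissue, fewer cells rich in these mRNAs and less of the mRNAs per cell cannot be told apart. A difference in preparation or counting between the 6 *Wnt9b*KO and DKO libraries and the 5 others cannot be told apart from genotype.

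**Figure D1:**
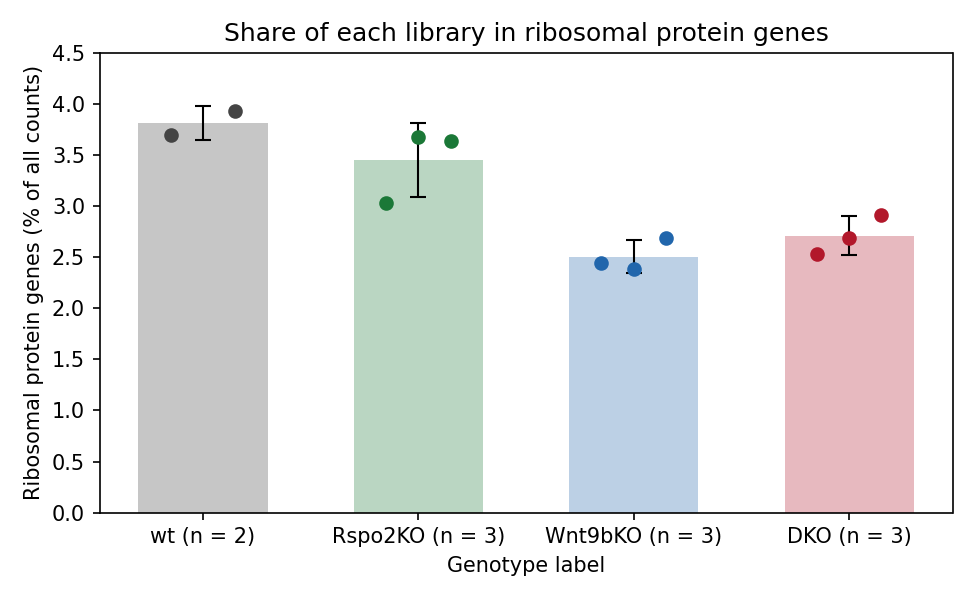
Percent of all counts of a library that fell in the 84 ribosomal protein genes, by genotype label. Points are libraries, bars group means and error bars SD; the 6 *Wnt9b*KO and DKO libraries sit between 2.39% and 2.91%, below the 5 others.

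Most members were lower in *Wnt9b*KO than in wt. Of 81 tested, 63 fell and 2 rose at adjusted p below 0.05 (edgeR's quasi-likelihood test with Benjamini-Hochberg adjustment over 17317 genes), where 16.0% of all genes fell and 16.8% rose, 32.8% in all. The median log2 fold change of the members was -0.71, and that of all genes tested was 0.01. Both subunits took part, with 26 of 33 small subunit members lower (median -0.72) and 37 of 48 large subunit members lower (median -0.67). The *Wnt9b*KO libraries lay wholly below the wt libraries for 69 members, against 28.0% of all genes, and above them for 2, against 28.3%. Calls of over 1.5-fold numbered 57, against 21.2% of all genes. Without *Wnt9b*KO 2 and DKO 3, 61 fell and 2 rose. With an offset for GC content and the joined length of a gene's exons, not its mRNA length, 62 fell and 2 rose. When libraries were scaled instead by the summed counts of the members, which raised the median of all genes to 0.66, the members' median was -0.08 and 14 were lower and 13 higher.

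**Figure D2:**
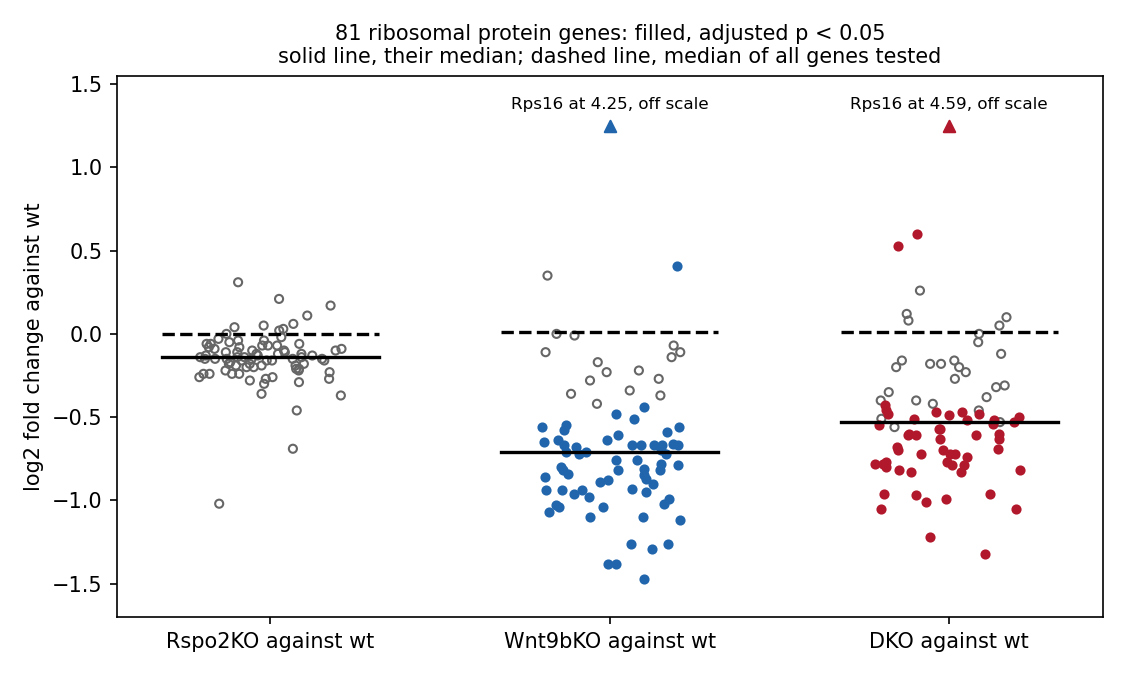
Log2 fold change against wt of the 81 tested ribosomal protein genes in each mutant group; filled points passed adjusted p below 0.05. The members' median was -0.14 in *Rspo2*KO, -0.71 in *Wnt9b*KO and -0.53 in DKO, while the median of all genes was between 0.00 and 0.01, and *Rps16* lies off the scale at 4.25 and 4.59.

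Among small subunit members, *Rps3*, which helps to form the mRNA entry channel, is described first because few of its coding windows occur in another gene. It was at 1251 and 1379 CPM in wt, at 972, 1285 and 1237 CPM in *Rspo2*KO, at 863, 752 and 916 CPM in *Wnt9b*KO and at 819, 872 and 1076 CPM in DKO. All *Wnt9b*KO and DKO libraries lay below both of wt, and the library labelled DKO 3 lay above *Rspo2*KO 1. *Rps3* fell by 0.64 ± 0.15 (SE) on the log2 scale in *Wnt9b*KO (edgeR adjusted p = 0.00546) and by 0.51 ± 0.15 in DKO (edgeR adjusted p = 0.0223).

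*Rps27a*, which encodes ubiquitin fused to a ribosomal protein, had the lowest log2 fold change of the members in *Wnt9b*KO. It was at 285 and 270.1 CPM in wt, at 206, 255 and 245 CPM in *Rspo2*KO, at 87.6, 90.5 and 122 CPM in *Wnt9b*KO and at 105, 105 and 146 CPM in DKO. The groups did not overlap between wt and either *Wnt9b*-mutant group, and *Rps27a* fell by 1.47 ± 0.16 in *Wnt9b*KO (edgeR adjusted p = 3.09e-05) and by 1.22 ± 0.16 in DKO (edgeR adjusted p = 1.41e-04). All of its coding windows are shared with other genes.

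Of the large subunit, *Rpl28* had the smallest p among the falls. It was at 151 and 164 CPM in wt, at 141, 162 and 155 CPM in *Rspo2*KO, at 69.8, 73.3 and 77.4 CPM in *Wnt9b*KO and at 73.7, 78.4 and 83.0 CPM in DKO. All 6 *Wnt9b*KO and DKO libraries lay below all 5 others, and the gene fell by 1.10 ± 0.10 in *Wnt9b*KO (edgeR adjusted p = 5.78e-06) and by 1.01 ± 0.10 in DKO (edgeR adjusted p = 1.33e-05), with every coding window shared. *Rpl34* fell by 1.38 ± 0.22 in *Wnt9b*KO and by 1.32 ± 0.22 in DKO, and *Rpl31* by 1.38 ± 0.23 and 1.05 ± 0.23. *Rpl8*, a component of the peptidyl transferase centre with few shared windows, fell by 0.68 ± 0.13 in *Wnt9b*KO (edgeR adjusted p = 0.00119) and by 0.63 ± 0.13 in DKO (edgeR adjusted p = 0.00265).

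The P-stalk genes, whose acidic proteins recruit translation factors, were not all called in *Wnt9b*KO. Differences between them were not tested. *Rplp0* fell by 0.67 ± 0.15 in *Wnt9b*KO and *Rplp1* by 0.89 ± 0.17. *Rplp2* did not pass the test (-0.11 ± 0.21, edgeR adjusted p = 0.738), and its wt libraries were far apart, at 187 CPM in wt 1 and 372 CPM in wt 2. *Rpl41*, which encodes the shortest of the proteins and had the highest level per kilobase of mRNA (1559 CPM per kb over all libraries), likewise had 556 and 892 CPM in wt and did not pass (-0.42 ± 0.21). Other high levels per kb were those of *Rplp1* (1535), *Rps14* (1169) and *Rpl8* (1152).

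Not every abundant member was lower. *Rpl4*, a core protein of the exit tunnel with 20.3% of its coding windows shared, was at 1029 and 1336 CPM in wt, at 1068, 1364 and 1265 CPM in *Rspo2*KO, at 1036, 1218 and 1297 CPM in *Wnt9b*KO and at 1097, 1225 and 1475 CPM in DKO. The 4 groups overlapped, and its log2 fold change in *Wnt9b*KO was 0.00 ± 0.16, with a 95% interval from -0.32 to 0.32. *Rpl14* gave -0.01 ± 0.14 in *Wnt9b*KO (interval -0.28 to 0.25). These intervals leave out the median change of the family.

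Measured relative to the family, by scaling each library to the summed counts of the members, members differed from one another. Relative to it, 13 members were higher in *Wnt9b*KO, among them *Rps16*, *Rpl11*, *Rpl4* (0.65 ± 0.14, edgeR adjusted p = 0.0012), *Rpl14* and *Rpl35*. Another 14 were lower, among them *Rps27a* (-0.84 ± 0.14, edgeR adjusted p = 2.88e-04), *Rpl38*, *Rpl31* and *Rpl34*. On this scale 53.9% of all genes passed the test.

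*Rps16* went against the family in both *Wnt9b*-mutant groups. Its protein is part of every small subunit and reaches towards the decoding site. It had 74 and 83 counts in wt and 76, 56 and 82 counts in *Rspo2*KO, but 2126, 1285 and 2315 counts in *Wnt9b*KO and 1960, 2316 and 2552 counts in DKO. In CPM these are 3.40 to 6.61 in the first 5 libraries and 76.6 to 155 in the other 6, with no overlap. The log2 fold change was 4.25 ± 0.28 in *Wnt9b*KO (edgeR adjusted p = 3.01e-07) and 4.59 ± 0.28 in DKO (edgeR adjusted p = 2.11e-07). *Rps16* made up 0.0138% of the members' counts in wt and *Rspo2*KO together and 0.476% in *Wnt9b*KO and DKO together. Every one of its coding windows is shared, as the pair of identical sequences above shows, and its copies that share 5% or more of its windows held 0 counts in every wt and *Rspo2*KO library and 1 to 4 in the other 6. The libraries in which *Rps16* was low and high are those without and with the *Wnt9b* mutation; whether both sets were prepared and counted alike is not given in the sources used here, and such a difference cannot be told apart from the genotype.

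*Rpl11* also rose against wt. This gene, whose protein binds MDM2 when ribosome assembly is disturbed, was at 173 and 157 CPM in wt, at 122, 160.1 and 136 CPM in *Rspo2*KO, at 219.6 ± 21.5 CPM (SD, n = 3) in *Wnt9b*KO and at 219.7, 237 and 293 CPM in DKO. Its levels in *Wnt9b*KO and DKO lay above all others, with a rise of 0.41 ± 0.15 (edgeR adjusted p = 0.0417) and 0.60 ± 0.15 (edgeR adjusted p = 0.00791). The call in *Wnt9b*KO was lost without either wt library (edgeR adjusted p = 0.104 without wt 1 and 0.242 without wt 2), and, at 0.051 to 0.103, without *Rspo2*KO 3, *Wnt9b*KO 1, *Wnt9b*KO 3 or DKO 2. That in DKO was lost without wt 2 (edgeR adjusted p = 0.087).

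**Figure D3:**
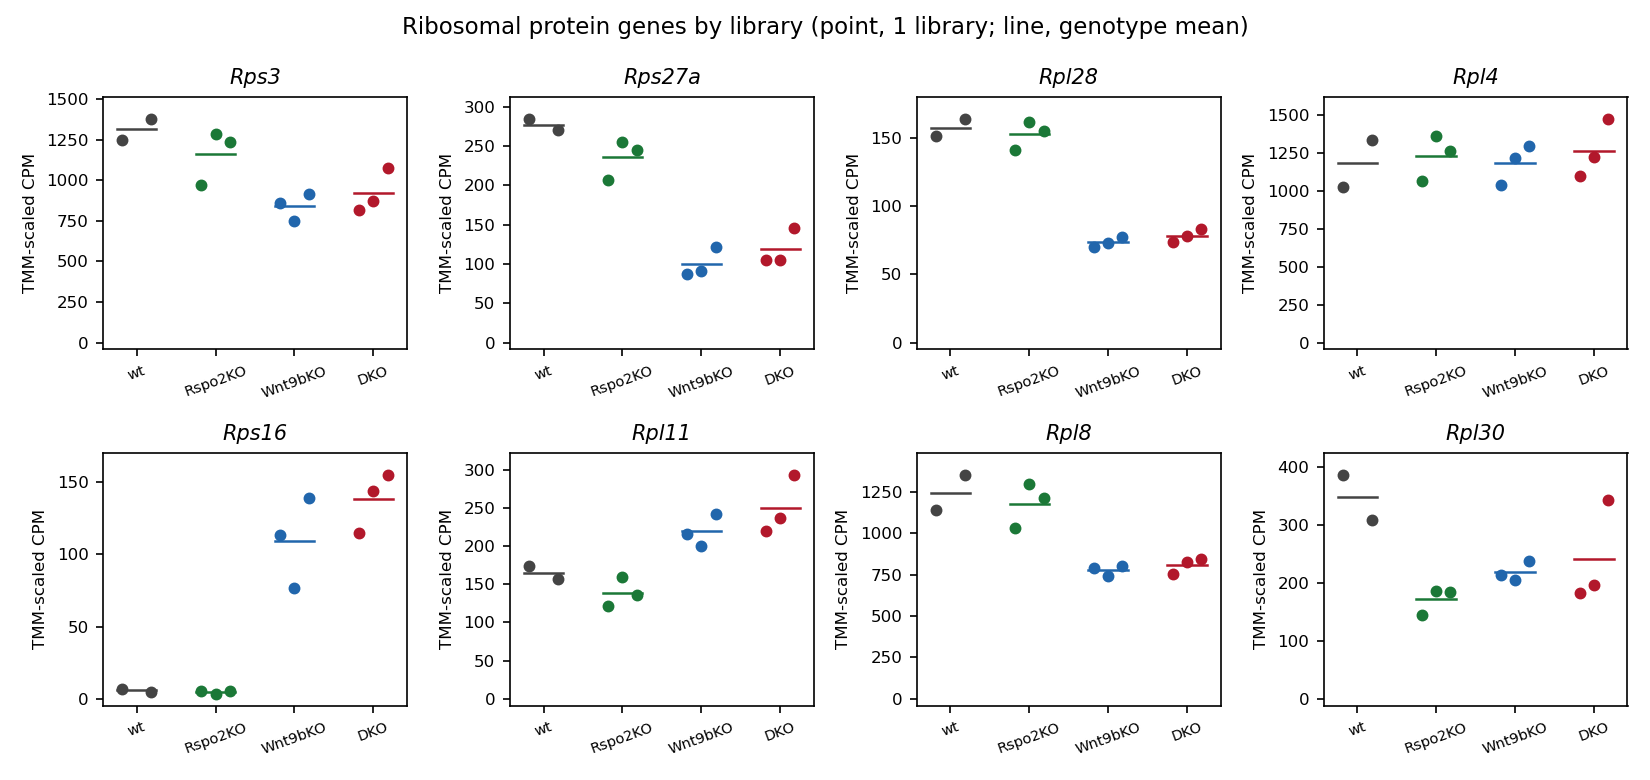
Level of 8 ribosomal protein genes in each library (y axis, TMM-scaled CPM from 0; points, libraries; lines, genotype means). *Rps27a*, *Rpl28* and *Rpl8* are lower in all 6 *Wnt9b*KO and DKO libraries than in the 5 others, *Rps3* is lower in those 6 than in wt, *Rpl4* overlaps between groups, *Rps16* and *Rpl11* are higher in those 6, and *Rpl30* is lowest in *Rspo2*KO.

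In DKO, 51 members fell and 3 rose against the same wt libraries, where 13.1% of all genes fell and 14.3% rose, 27.5% in all. The median log2 fold change of the members was -0.53, with 0.01 for all genes. The DKO libraries lay below both wt libraries for 59 members, against 28.6% of all genes, and above both for 4, against 29.5%. Calls of over 1.5-fold numbered 37, against 16.7%. The count moved with single libraries, from 54 calls in all to 26 without wt 2, 34 without DKO 1 and 62 without DKO 3. DKO 3 had the highest share of the group, and without it the median was -0.68. Scaling by the members themselves left 19 calls, 9 higher and 10 lower, where 37.7% of all genes were called.

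DKO and *Wnt9b*KO were not told apart for any member. Of 81, 0 passed the edgeR test, where 0.121% of all genes did (0.0635% higher and 0.0577% lower, and 0.121% over 1.5-fold). DESeq2 called 0, and 1 had an unadjusted p below 0.05, against 5.63% of all genes. The libraries did not separate for any member in either direction, against 5.92% of all genes higher and 5.32% lower. Of the 81 log2 fold changes 80 were above 0, with a median of 0.17. Without *Wnt9b*KO 2 and DKO 3 that median was 0.01. Against *Rspo2*KO, 40 members were lower in DKO and 4 higher (*Rps16*, *Rpl11* and *Rpl3* among them), where 9.07% of all genes were lower and 9.15% higher, 18.2% in all. Of these calls 26 were over 1.5-fold, against 9.26%. DKO lay wholly below *Rspo2*KO for 39 members, against 18.3% of all genes, and above for 7, against 18.2%. The count of calls went to between 20 and 23 when *Rspo2*KO 2, *Rspo2*KO 3, DKO 1 or DKO 2 was left out.

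In *Rspo2*KO no member passed the edgeR test, where 0.0346% of all genes did (0.0289% higher and 0.00577% lower). At an unadjusted p below 0.05 there were 3 members (*Rpl30*, *Rpl3* and *Rps29*), against 11.9% of all genes, and DESeq2 called 1, *Rpl30*. The members' median was -0.14 with 72 of 81 below 0, and leaving out *Rspo2*KO 1, which had the lowest share of the group, brought it to -0.04. All *Rspo2*KO libraries lay below both of wt for 20 members, against 15.7% of all genes, and above for 0, against 17.2%.

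*Rpl30*, which encodes a large subunit protein and lies 8.58 Mb from *Rspo2* on chromosome 15 (chr15:34440505-34443640, GRCm38), had its own order of levels. It was at 385 and 309 CPM in wt, at 144, 186 and 183 CPM in *Rspo2*KO, at 214, 204 and 237 CPM in *Wnt9b*KO and at 182, 196 and 342 CPM in DKO. The high DKO library is the one labelled DKO 3, whose *Rspo2* level was also that of wt. In *Rspo2*KO the log2 fold change was -1.02 ± 0.21 (edgeR adjusted p = 0.182), all 3 libraries being below both of wt. Without DKO 3 in the fit the same comparison gave -1.03 with an edgeR adjusted p of 0.00747, and with only the 2 groups in the fit 0.0278. The value was -0.84 with an edgeR adjusted p of 0.978 without wt 1 and -0.91 with 0.526 without *Rspo2*KO 1. In DKO the log2 fold change of *Rpl30* was -0.53 (edgeR adjusted p = 0.0803), and it was -0.88 (edgeR adjusted p = 0.00133) without *Wnt9b*KO 2 and DKO 3. The other members on this chromosome lie farther off, and gave -0.36 ± 0.12 (*Rpl3*, 36.9 Mb), -0.08 ± 0.13 (*Rpl8*, 33.7 Mb) and 0.17 ± 0.22 (*Rpl37*, 37.9 Mb).

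Whether the 2 mutations together gave other than the sum of their log2 effects was tested as an interaction. Of the members 0 passed with edgeR (0.0635% of all genes did, 0.0289% above 0 and 0.0346% below), 12 had an unadjusted p below 0.05, against 9.45% of all genes, and DESeq2 called 1, *Rpl30*. The 4 smallest p belonged to *Rpl30*, *Rps29*, *Rpl3* and *Rps28*, and 80 of 81 values were above 0 with a median of 0.31. Without *Wnt9b*KO 2 and DKO 3 the median was 0.18.

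Some members tied to Diamond-Blackfan anemia or to patterning of the mouse embryo were described as a list of their own. The list was drawn up by hand from textbook knowledge and is not complete. Of 13 tested, 11 fell and 1 rose in *Wnt9b*KO (median -0.71), and 8 fell and 1 rose in DKO (median -0.51). Of all 81 tested members, 63 fell in *Wnt9b*KO and 51 in DKO, and of all genes 16.0% and 13.1%. *Rps19*, the gene most often mutated in that anemia, was at 440.4 and 359 CPM in wt, at 213, 210.2 and 238 CPM in *Wnt9b*KO and at 217, 240.0 and 283 CPM in DKO, and fell by 0.86 ± 0.14 (edgeR adjusted p = 5.38e-04) and by 0.70 ± 0.14 (edgeR adjusted p = 0.00276). *Rpl38*, whose loss alters vertebral patterning in mice, fell by 1.26 ± 0.18 in *Wnt9b*KO (edgeR adjusted p = 2.06e-04) and by 0.99 ± 0.18 in DKO (edgeR adjusted p = 0.00139). *Rps24* was the member of this list that passed neither test, at -0.22 ± 0.16 and -0.05 ± 0.16.

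Of a list of paralogs of other members, 4 were tested and 2 of them fell in *Wnt9b*KO, *Rps27l* and *Rpl36al*. The wt mean of *Rpl22l1* was 31.0 ± 9.29 CPM (SD, n = 2) and its *Wnt9b*KO mean 28.1 ± 6.23 CPM (SD, n = 3), while those of *Rpl22* were 477 ± 7.51 and 334 ± 36.9 CPM. Its log2 fold change was -0.14 ± 0.22 in *Wnt9b*KO, where *Rpl22* fell by 0.51 ± 0.15. *Rps27l*, at 113 CPM in wt, fell by 1.03 ± 0.22 in *Wnt9b*KO, and *Rps27*, at 169.5 CPM in wt, by 0.98 ± 0.19. *Rpl36al* fell by 0.84 ± 0.15 and its X-linked partner *Rpl36a* by 1.04 ± 0.18. *Rpl7l1* did not pass the test (-0.23 ± 0.12), and *Rpl7* fell by 0.44 ± 0.16.

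Copies of the members were read in the files as genes of their own. There were 474 that share 5% or more of a member's windows, of which 49 were at 0 in every library, 46 had enough counts for a test and 5 passed 10 CPM in any library. In *Wnt9b*KO 9 of the 46 rose and 3 fell, where 16.8% of all genes rose and 16.0% fell. *Gm6472*, the copy of *Rps7* printed above, was at 0.0607 to 0.181 CPM in wt and *Rspo2*KO, at 22.5, 35.9 and 20.3 CPM in *Wnt9b*KO and at 17.6, 40.2 and 47.2 CPM in DKO. *Rpl34-ps1* had no count in any wt or *Rspo2*KO library and was at 1.79 to 5.22 CPM in the other 6.

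Other copies divided the libraries of a single genotype. *Gm13841*, identical to *Rpl29* at 477 of 480 coding bases, was at 25.1, 0.00 and 34.5 CPM in *Wnt9b*KO and at 27.1, 0.187 and 39.1 CPM in DKO, and at 0.00 to 0.179 CPM in wt and *Rspo2*KO. *Rpl29* itself was at 40.1, 84.2 and 70.5 CPM in those *Wnt9b*KO libraries and 60.9, 89.3 and 79.6 CPM in DKO, so that it was highest where *Gm13841* was at or near 0. *Gm11942*, a copy of *Rplp1*, was at 0.00, 0.00 and 6.60 CPM in *Wnt9b*KO and at 7.28, 0.0623 and 10.6 CPM in DKO. *Rpl29* together with its 34 copies was at 155 and 174.5 CPM in wt and 75.6, 91.8 and 113 CPM in *Wnt9b*KO. The alleles the mice carry at these copies were not tested.

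**Figure D4:**
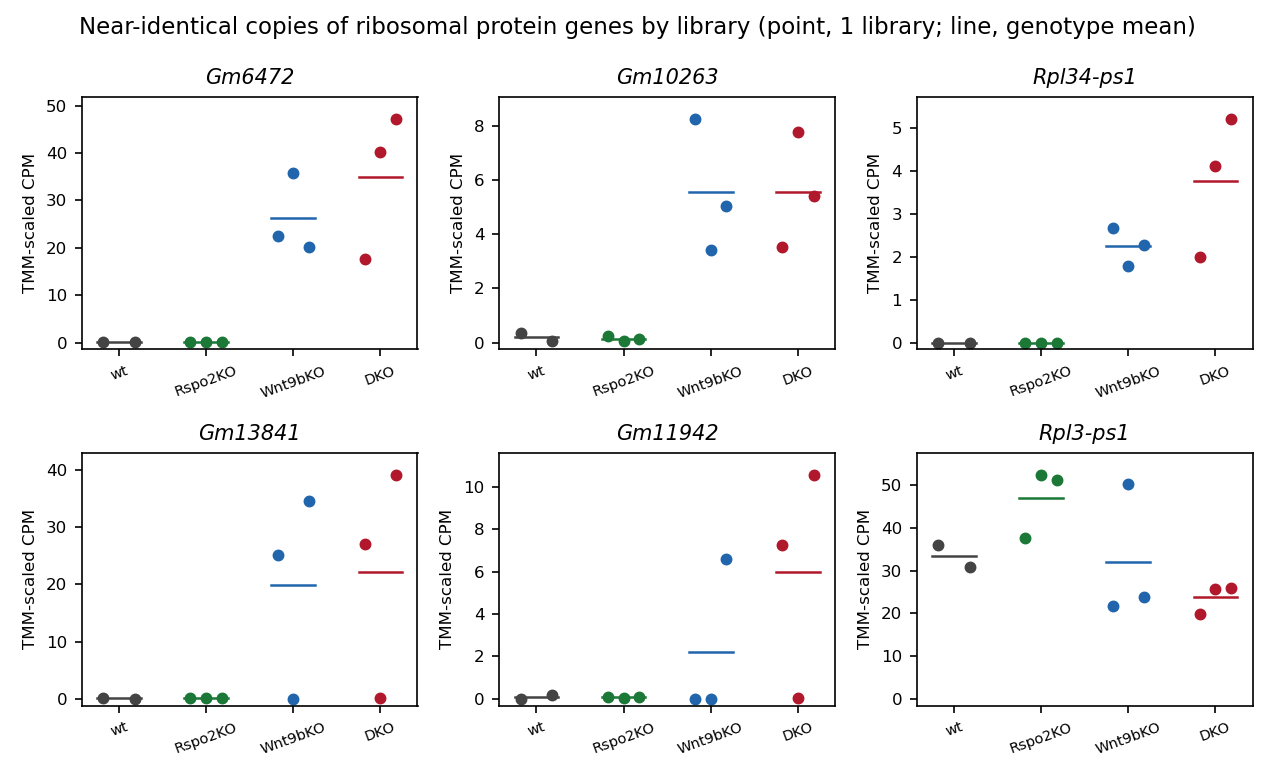
Level of 6 near-identical copies of ribosomal protein genes in each library (y axis, TMM-scaled CPM; points, libraries; lines, genotype means). *Gm6472*, *Gm10263* and *Rpl34-ps1* are near 0 in wt and *Rspo2*KO and present in all 6 others, whereas *Gm13841* and *Gm11942* pass 1 CPM only in some *Wnt9b*KO and DKO libraries.

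Falls were counted by how much sequence a member shares. The 29 members with every coding window shared had a median of -0.76 in *Wnt9b*KO, with 23 lower and 2 higher. The 5 tested members with under 25% shared had a median of -0.64, with 3 lower. Across 81 members the Spearman correlation of the log2 fold change with the share of coding windows was -0.08, and with mRNA length 0.44, as descriptions over genes of the same libraries.

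Short mRNAs outside the family were lower as well. In *Wnt9b*KO the median log2 fold change of other protein-coding genes was -0.47 for mRNAs under 1000 bases, -0.22 from there to under 2000, -0.04 from 2000 to under 4000 and 0.19 at 4000 bases or more. Of 118 other genes with an mRNA under 1000 bases and a mean of 100 CPM or more, 78 fell and 5 rose, with a median of -0.69, close to the -0.71 of the members. In DKO the corresponding medians were -0.49 and -0.53.

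**Figure D5:**
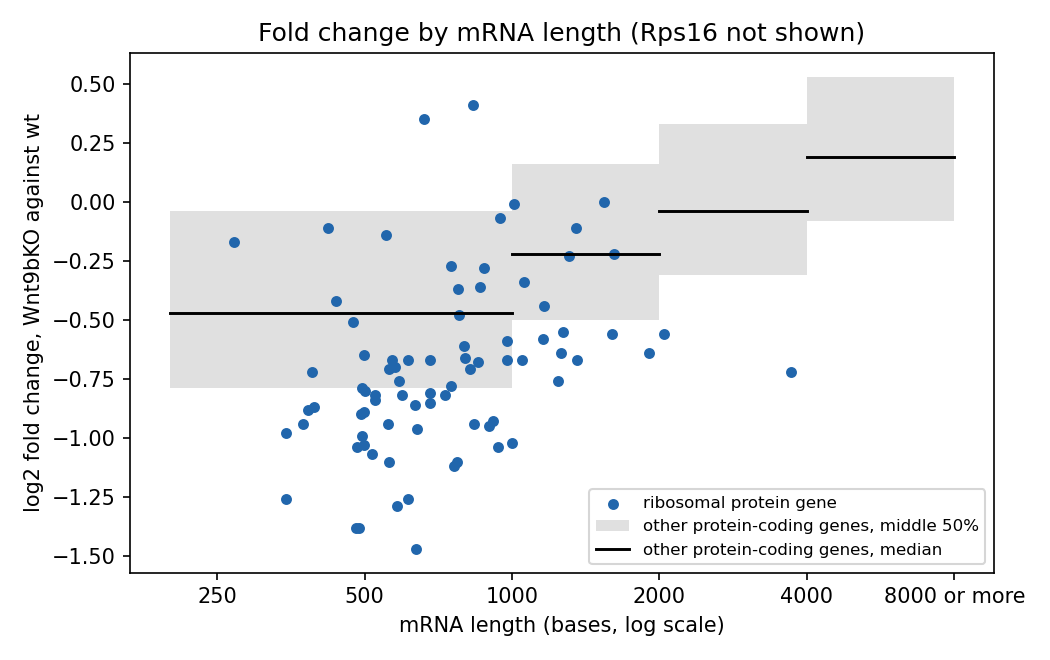
Log2 fold change in *Wnt9b*KO against wt by mRNA length (log scale) for the ribosomal protein genes (points) and for other protein-coding genes in 4 length classes (line, median; grey, middle 50%). The class medians go from -0.47 for mRNAs under 1000 bases to 0.19 for those of 4000 or more.

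The snRNA genes and erythroid markers divided the libraries the same way. The snRNA genes summed to 352 to 419.6 CPM in wt and *Rspo2*KO and to 70.1 to 82.7 CPM in *Wnt9b*KO and DKO. Of 7 erythroid markers, 6 had lower means in *Wnt9b*KO and DKO than in the other groups and none was at 0; their sum was 3966 to 5799 CPM in wt and *Rspo2*KO and 1743 to 2849 CPM in *Wnt9b*KO and DKO. Their part in the members' fall was not tested. In wt, *Xist*, a marker of X inactivation, stood at 679.6 and 906 CPM, with 1040 to 1469 CPM in DKO, and 0.821 to 1.94 CPM in *Rspo2*KO and *Wnt9b*KO. *Ddx3y*, a Y-linked gene, was at 57.6 to 75.7 CPM in *Rspo2*KO and *Wnt9b*KO and at 0.0587 to 4.43 CPM in wt and DKO. For *Wnt9b*KO and *Rspo2*KO against wt, and for DKO against either single mutant, the sex of the embryos and the genotype cannot be told apart. The same holds for the interaction. The 4 X-linked members (*Rpl10*, *Rpl36a*, *Rpl39* and *Rps4x*) all fell in *Wnt9b*KO.

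Genes that work with the members were counted from lists, to be read against the 16.0% of all genes that fell and the 16.8% that rose in *Wnt9b*KO. Of 22 other genes with TOP mRNAs, 9 fell and 3 rose in *Wnt9b*KO (median -0.29); *Tpt1*, which encodes a growth-linked TOP mRNA product, fell by 2.14, and *Hnrnpa1* rose by 1.23. Of 40 ribosome assembly genes, 11 fell and 7 rose (median -0.08), among the latter *Rrs1* (2.15) and *Tcof1* (1.41), a gene mutated in Treacher Collins syndrome. *Nolc1* (0.94) and *Polr1b* (0.63) also rose, *Polr1c* (-0.66) and *Polr1d* (-0.53) fell, and *Polr1a* (0.05) did not pass the test. Mitochondrial ribosomal protein genes fell in 50 of 76 cases and rose in 1 (median -0.47), and respiratory chain genes fell in 66 of 82 (median -0.73). Among 13 genes of the p53 response 3 fell and 3 rose, with *Cdkn1a* at -1.90 and *Trp53* at 1.17, and among 13 genes of growth control 2 fell and 5 rose. In *Rspo2*KO no gene of these 6 lists passed the edgeR test.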

How the data were processed

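Total RNA was extracted with TRIzol and sequenced as single-end reads. Per the labels and the study's methods, the authors used Cutadapt for trimming, STAR for alignment against GRCm38 and HTSeq for counting; the deposited values are raw counts per gene, one file per library, and no versions, strand setting or treatment of multiply mapped reads are given in the sources used here. Genotypes were taken from the labels. Gene positions, biotypes and transcripts came from GENCODE M21 (GRCm38), in which 36723 of 38561 genes matched.

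Counts were tested with edgeR 4.0.16 in R 4.3.3 (filterByExpr, TMM, glmQLFit and glmQLFTest, two-sided, a mean per genotype, all 11 libraries), with Benjamini-Hochberg adjustment over 17317 genes and a threshold of 0.05. Fold changes are log2 with SE. DESeq2 1.42.0, other scalings, filters and library sets were alternatives. Lengths of mRNAs are of 1 mRNA per gene, of the best APPRIS level. The offset for GC content and length used instead the joined length of all annotated exons of a gene. The scripts were tested on simulated data. The members and the lists were chosen with earlier results of these data known. Members named by rule are the 8 with the highest level per length and the 4 smallest p per direction and comparison. Paralogs, listed disease or patterning genes and the 4 smallest interaction p were also named by rule. *Rps3*, *Rpl4*, *Rpl14*, *Rpl29*, *Rpl31*, *Rpl35*, *Rpl37*, *Rplp0*, *Rplp2* and the copies were named outside these rules, after their values were seen. Of the other lists, genes with the smallest p were named, and the *Polr1* genes were added outside that rule. Some members that the rule names are not reported here. Totals were 11136166 to 18017344 counts, so that 3 counts, the limit for a count of 0, equal 0.160 to 0.268 CPM.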

Additional observations from a re-analysis of the deposited data

How the results depend on the processing

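The members' median against wt stayed below 0 in all 3 mutant groups under every alternative run. Leaving out 1 library gave 50 to 67 calls and a median of -0.81 to -0.65 in *Wnt9b*KO, 26 to 62 calls and -0.68 to -0.46 in DKO, 0 to 1 calls and -0.21 to -0.04 in *Rspo2*KO, 20 to 47 calls for DKO against *Rspo2*KO, and 0 calls for DKO against *Wnt9b*KO and for the interaction.

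Scaling by the members left 27 calls in *Wnt9b*KO, 19 in DKO and 23 for DKO against *Rspo2*KO, with medians of -0.08 and -0.07 in the first and second; by its construction it sets the family to no change. Since it raises all genes alike, 24 of 81 members in *Wnt9b*KO and 22 in DKO went from below to above 0 at 2 decimals. Among the members named by rule and called under at least 1 of the scalings these were in *Wnt9b*KO *Rpl10* (0.03), *Rpl22* (0.13), *Rpl27a* (0.05), *Rpl3* (0.53), *Rpl5* (0.09), *Rpl7* (0.21), *Rpl7l1* (0.41), *Rps24* (0.44), *Rps28* (0.47) and *Rpsa* (0.09). In DKO they were *Rpl5* (0.04), *Rps24* (0.42) and, from -0.00, *Rpl3* (0.47). Members named otherwise that turned in *Wnt9b*KO included *Rps3* (0.01), *Rpl14* (0.64), *Rpl35* (0.56) and *Rplp2* (0.57). In *Rspo2*KO, 1 member was called with DESeq2, with only the groups compared, and without *Wnt9b*KO 2 and DKO 3 together, and 2 without a filter on low counts; for the interaction these were 1 with DESeq2 and 2 without a filter. The cause was not tested. A fold threshold of 1.5 left 26 calls for DKO against *Rspo2*KO.

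The libraries were not treated as paired, because the labels tie no number to a shared litter or day and the correlations of deviations from the group means were not above 0.1 in every same-numbered pair. All 9 such pairs between mutant groups were above 0 (0.0415 to 0.236), against 3 of 18 pairs with different numbers. Same-numbered pairs with wt were at -0.105 to 0.0246. Deviations within a group sum to 0, so these counts are not independent of each other. With only 2 wt libraries, their deviations are mirror images. With the replicate number as a block there were 69 calls in *Wnt9b*KO, 65 in DKO and 0 in *Rspo2*KO, and block and offset for GC content and length together gave 68, 64 and 1. Shares of protein-coding counts were 4.60% in wt, 4.29% in *Rspo2*KO, 3.07% in *Wnt9b*KO and 3.42% in DKO, and without mitochondrial and globin genes 4.76%, 4.45%, 3.14% and 3.51%, in the same order. Of 83 named gene comparisons, 62 lost or gained a call or turned under at least 1 alternative.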
